A study of Bos taurus with 8 samples.

Results

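Genes that carry, make, bind and answer to retinoids were compared between stem-like cells grown from cattle embryos (eSLCs) and cattle somatic cells (SCs). The set held 9 genes. RBP4 and STRA6 belong to retinol transport and uptake, ALDH1A1 and ALDH1A2 to retinoic acid synthesis, CRABP1 and CRABP2 to intracellular binding, RARB to the retinoic acid receptors, and NR2F1 and NR2F2 to the COUP-TF orphan receptors. Probes were assigned to these genes through the RefSeq accession that each probe carries. In this way 7 of the 9 genes had a probe, with 19 probes in all, among 12603 genes that could be named on the array. ALDH1A2 and RARB had no probe named by this rule and were not analysed here.

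RNA of 8 samples of HanWoo, the native cattle of Korea, was hybridized with 1 dye on Agilent bovine oligo arrays. The eSLCs were 6 lines, each grown from a blastocyst on a layer of inactivated mouse STO feeder cells. I2 (passage 35) and I9 (passage 30) came from in vitro produced embryos (IVP-eSLCs), N2 (passage 36) and N7 (passage 30) from somatic cell nuclear transfer embryos (NT-eSLCs), and P1 (passage 31) and P4 (passage 36) from parthenogenetic embryos (PA-eSLCs). The SCs were sampled at passages 5 and 10. All eSLCs grew in a serum-free medium with the B27 supplement, the MEK inhibitor PD184352, the FGF receptor inhibitor SU5402 and the GSK3 inhibitor CHIR99021, whereas the SCs grew in DMEM with fetal bovine serum. Medium, passage, cell type and the feeder layer described for the eSLCs therefore cannot be told apart in any difference between eSLCs and SCs. The tissue of the SCs is not given in the labels, and nothing states that SC P5 and SC P10 came from separate cultures, so their spread may be technical.

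Retinol (vitamin A) travels in blood bound to RBP4 and can enter cells through the membrane receptor STRA6. Inside the cell it is oxidized to retinal, which aldehyde dehydrogenases of the ALDH1A family turn into retinoic acid. CRABP1 and CRABP2 hold retinoic acid in the cytoplasm, CYP26 enzymes break it down, and nuclear receptors of the RAR and RXR families switch genes on when it binds. NR2F1 and NR2F2 are nuclear receptors that bind to similar DNA elements, can oppose RAR and RXR, and are known from mesenchyme and the nervous system. Serum carries retinol, and the usual form of B27 holds a retinol ester; which form was used is not given in the sources used here.

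Signals are given as normalized signal, the background-subtracted brightness of a probe after each array's 75th percentile was set to 1000. Values below 13.3, the floor, were raised to it and have no order. A gene was called different at a Benjamini-Hochberg adjusted p under 0.05 in limma over 10958 tested genes and at least a 2-fold difference. The number of arrays, 2 per condition, limits the precision of every value. Of the probes on an array, 71.2% to 76.7% were well above background. The arrays of I9 and N2, lines of different embryo origin, were more alike (Pearson r = 0.9932 over the 10958 tested genes) than any other pair of arrays, the SC pair included (0.9926). In the deposited normalized table r was taken over all probes, without this floor and for some pairs only. There it was 0.962 for I9 and N2, below 0.971 for I2 and I9, 0.976 for P1 and P4 and 0.987 for the SC pair. The sources were thus compared over unlike sets of probes, and which of them is right for N2 was not tested. The 6 eSLC arrays correlated with the SC arrays at 0.763 to 0.798. SC P5 shared slide 1 with I2, I9 and N7, and SC P10 shared slide 2 with the other lines, so that each slide held 3 eSLC arrays and 1 SC array. IVP-eSLCs lay on slide 1 alone and PA-eSLCs on slide 2 alone.

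Most of the retinoid genes were lower in eSLCs than in SCs and none was higher. These were RBP4, ALDH1A1, CRABP1, CRABP2 and NR2F1, which makes 5 of the 7 tested, whereas 15.7% of all tested genes were called lower and 19.7% higher. NR2F2 lay below both SC arrays in every eSLC line by the scanner signal without passing the test, and STRA6 overlapped between eSLCs and SCs. The median log2 difference of the 7 genes was -4.38, and the median of all tested genes was 0.23. The genes were chosen with earlier results of these data known, so these contrasts with all genes are a description and no test. The same holds for the counts by embryo origin given below. The study's other comparison, between eSLCs of different embryo origin, gave no call for any of the 7 genes.

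**Figure D1:**
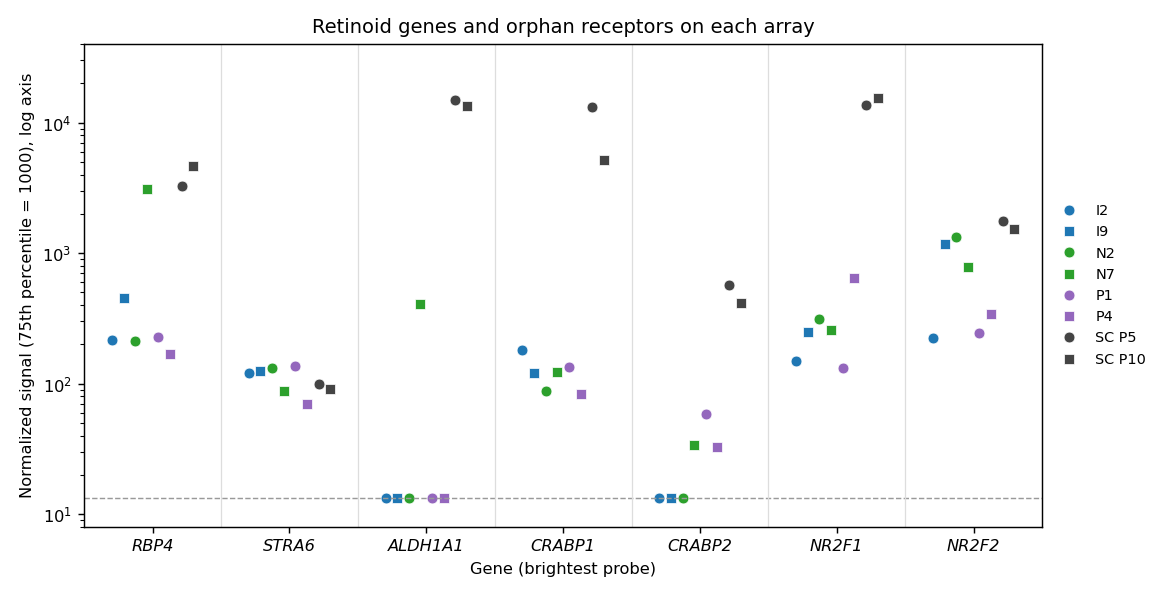
Normalized signal (log axis) of the brightest probe of each of the 7 retinoid genes on the 8 arrays. Each point is 1 array, colours mark IVP-eSLCs (blue), NT-eSLCs (green), PA-eSLCs (purple) and SCs (grey), and the dashed line is the floor of 13.3. ALDH1A1, CRABP1, CRABP2 and NR2F1 were higher in both SC arrays than in every eSLC line, and for RBP4 the line N7, at 3120, lay next to SC P5, at 3287. Heights of different genes come from different probes and are not to be compared.

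RBP4, the plasma carrier of retinol, was high in SCs and in 1 eSLC line. Its normalized signal was 3287 in SC P5 and 4633 in SC P10. In the IVP-eSLCs it was 218 in I2 and 449 in I9, in the PA-eSLCs 227 in P1 and 168 in P4. Of the NT-eSLCs, N2 read 211 and N7 read 3120. N7 thus stood close below the SC arrays, and the other 5 lines lay together far below it. By these signals the order by condition was SC (mean 3902), NT-eSLC (811), IVP-eSLC (313) and PA-eSLC (195). N2 and N7 differed by 3.89 on the log2 scale, so NT-eSLCs were not separated from the conditions next to them in this order.

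Over all eSLCs, RBP4 was 10.6-fold lower than in SCs, with a log2 difference of -3.41 (SE 0.974, limma adjusted p = 0.0316). The difference was -2.29 within slide 1, which holds N7, and -4.53 within slide 2. The call was lost when any array but those of N2 and N7 was left out, with adjusted p between 0.0507 and 0.202. Without N7 the log2 difference was -4.06 (limma adjusted p = 0.00103). A second, dimmer probe of RBP4 gave the same picture, with 263 in N7, 267 in SC P5, 301 in SC P10 and between 16.7 and 39.1 in the other eSLC lines. In the deposited normalized table, however, RBP4 read 735 in N2 and 759 in N7, beside 765 in SC P5 and 766 in SC P10 and 29.2 to 101 in the other lines. The scanner signal and that table therefore differ for RBP4 in N2, and why they do was not tested.

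STRA6, the cell-surface receptor that takes up retinol from RBP4, did not separate the groups. Its brightest probe gave 121 in I2, 125 in I9, 132 in N2, 87.5 in N7, 135 in P1 and 70.2 in P4. SC P5 gave 100 and SC P10 gave 90.8. The SC values lay inside the range of the eSLC lines. The log2 difference was 0.19 (SE 0.297, limma adjusted p = 0.627), close to the median of all tested genes, and became -0.01 when the 5 STRA6 probes were averaged. Of the other 4 probes, 2 were well above background on 7 or 8 arrays but stayed at or below 50.8, 1 was at the floor on all 8 arrays and 1 left the floor in P4 alone, at 28.6.

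ALDH1A1, a retinaldehyde dehydrogenase that produces retinoic acid, had the largest log2 difference between SCs and eSLCs among the 7 genes. It read 14880 in SC P5 and 13510 in SC P10, and these values differed by 0.14 on the log2 scale. In I2, I9, N2, P1 and P4 it was at the floor and not well above background. In N7 alone it was measured, at 409. SC signal was at least 1068-fold higher than that of IVP-eSLCs and of PA-eSLCs, whose arrays were all at the floor. The limma adjusted p was 0.00351 for IVP-eSLCs and 0.00334 for PA-eSLCs against SCs. For all eSLCs the fitted log2 difference was -9.24 (SE 1.18, limma adjusted p = 0.00167), a value set in part by the floor. It was -8.48 within slide 1 and -9.99 within slide 2.

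The other 2 probes of ALDH1A1 separated the arrays in the same way. They read 6947 and 480 in SC P5, 6612 and 462 in SC P10, and 193 and 47.5 in N7, and were at the floor in the other 5 eSLC lines. N7 was therefore the only eSLC line in which any of the 3 probes left the floor.

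CRABP1, which binds retinoic acid in the cytoplasm, was far lower in every eSLC line. It read 13070 in SC P5 and 5175 in SC P10. The eSLC lines gave 182 (I2), 121 (I9), 87.7 (N2), 122 (N7), 135 (P1) and 82.6 (P4). The SC arrays differed from each other by 1.34 on the log2 scale, more than the whole range of the eSLC lines (1.14), and the lowest SC value was still far above the highest eSLC value. The means of the 3 eSLC origins, 148 in IVP-, 104 in NT- and 106 in PA-eSLCs, were not separated beyond the spread of their lines. CRABP1 was 70.0-fold lower in eSLCs, with a log2 difference of -6.13 (SE 0.421, limma adjusted p = 0.000154), -6.55 within slide 1 and -5.71 within slide 2. Its second probe read 3130 and 1433 in SCs and at most 19.8 in eSLCs.

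CRABP2, which delivers retinoic acid to its nuclear receptor, was measured by a lone probe. It read 565 in SC P5 and 413 in SC P10. In I2, I9 and N2 it was at the floor, and in N7, P1 and P4 it was 34.1, 58.5 and 33.0. All SC values lay above all eSLC values. SC signal was at least 36.4-fold higher than that of IVP-eSLCs (limma adjusted p = 0.00082). The difference from SCs was 22.7-fold for NT-eSLCs and 11.0-fold for PA-eSLCs. Over all eSLCs the log2 difference was -4.38 (SE 0.413, limma adjusted p = 0.000522), -4.96 within slide 1 and -3.81 within slide 2. Between origins, PA-eSLCs lay at least 3.31-fold above IVP-eSLCs with arrays that did not overlap, and this difference did not pass the test (limma adjusted p = 0.852).

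NR2F1 (COUP-TFI), an orphan receptor of neural and mesenchymal cells, was likewise lower in every eSLC line. It read 13710 in SC P5 and 15450 in SC P10. The eSLC lines gave 148 (I2), 248 (I9), 314 (N2), 259 (N7), 131 (P1) and 650 (P4). P4 was the highest of the lines and P1 the lowest, so that the PA-eSLC pair spanned the whole range, 2.31 on the log2 scale. The means by origin, 192 in IVP-, 285 in NT- and 292 in PA-eSLCs, did not differ beyond this spread. NR2F1 was 57.8-fold lower in eSLCs than in SCs (log2 difference -5.85, SE 0.593, limma adjusted p = 0.00068), -6.02 within slide 1 and -5.69 within slide 2. The second NR2F1 probe was dim, at 32.4 and 28.1 in SCs and at the floor in all eSLC lines.

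NR2F2 (COUP-TFII), the close relative of NR2F1 that is known from mesenchyme, veins and uterus, stayed much nearer to its SC level. It read 1769 in SC P5 and 1537 in SC P10. The eSLC lines split widely, with 1335 in N2, 1173 in I9 and 781 in N7, and with 341 in P4, 246 in P1 and 223 in I2. The groups did not overlap, but N2 and I9 lay just below the lower SC array. In the deposited normalized table they did overlap, with 5153 in I9 and 5202 in N7 beside 5120 in SC P5 and 2267 in SC P10. The log2 difference over all eSLCs was -1.63 (SE 0.622, limma adjusted p = 0.0759), which was not called, and it was -1.59 within slide 1 and -1.67 within slide 2.

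The split in NR2F2 did not follow the embryo origin. I2 and I9, both IVP-eSLCs, differed by 2.40 on the log2 scale, whereas N2 and N7 differed by 0.77 and P1 and P4 by 0.47. PA-eSLCs were called lower than SCs, by 5.69-fold (log2 difference -2.51, limma adjusted p = 0.0426), but the adjusted p was 0.0875 with the slide as a block and 0.0548 to 0.195 without N2, N7, P1, P4 or an SC array in turn. Over all eSLCs NR2F2 passed the test without I2 (log2 difference -1.23, limma adjusted p = 0.0265), without I9 (-2.03, 0.00578) and without both I9 and N2 (-2.16, 0.00428). A further 2 probes of NR2F2 separated the same high and low lines. The brighter of them read 409 in I9, and 324 and 310 in N2 and N7. It read 73.9 in I2, 78.3 in P1 and 109 in P4, and 684 and 535 in SCs. The fourth probe was dim, at no more than 25.2 on any array.

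**Figure D2:**
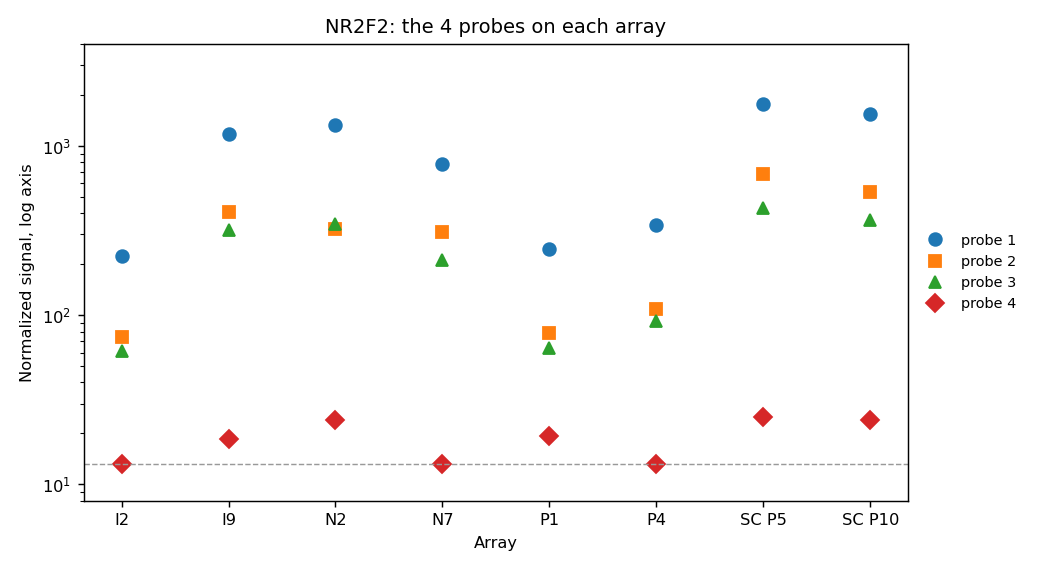
Normalized signal (log axis) of the 4 NR2F2 probes on each array, with the floor of 13.3 as a dashed line. In the brightest probe I9, N2 and N7 lie at 781 to 1335 and I2, P1 and P4 at 223 to 341, and the next 2 probes separate the same lines.

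By embryo origin, each compared with the same 2 SC arrays, 4 of 7 retinoid genes were called lower in IVP-eSLCs, where 14.6% of all genes were called lower and 17.7% higher. In NT-eSLCs 4 of 7 were called lower, beside 13.9% of all genes lower and 15.8% higher. In PA-eSLCs it was 6 of 7, beside 14.9% of all genes lower and 20.3% higher. ALDH1A1, CRABP1, CRABP2 and NR2F1 were called in each origin, and none of the 7 was called higher in any. RBP4 was called in PA-eSLCs alone (log2 difference -4.32, limma adjusted p = 0.0318). In IVP-eSLCs its log2 difference was -3.64 (limma adjusted p = 0.0574) and in NT-eSLCs -2.27 (0.192). With the slide as a block in limma, RBP4 was called in IVP-eSLCs (adjusted p = 0.0464) and not in PA-eSLCs (0.0841). IVP-eSLCs lay on slide 1 alone and PA-eSLCs on slide 2 alone, so that block rests on the NT-eSLC and SC pairs. N2 and N7 differed by 3.89 for RBP4 on the log2 scale, so the N7 value enters both of these changes. The RBP4 call in PA-eSLCs was also lost when an SC array or any IVP- or PA-eSLC line was left out (0.0516 to 0.164). Without N7 the lone NT line N2 gave a log2 difference of -4.21 for RBP4, and without N2 the lone line N7 gave -0.32. The ALDH1A1 call in NT-eSLCs (log2 difference -7.59, limma adjusted p = 0.0107) was lost without SC P5 (0.0922) or SC P10 (0.0813).

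**Figure D3:**
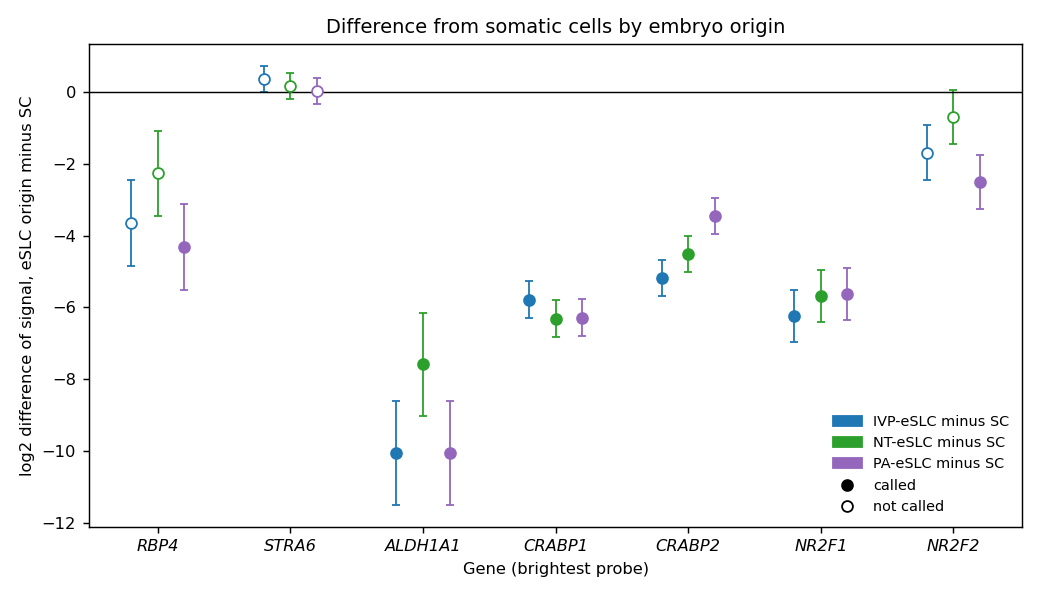
log2 difference of normalized signal between each eSLC origin and SCs for the 7 retinoid genes, with bars of 1 standard error from the limma fit. Filled points were called (adjusted p under 0.05 and at least 2-fold), open points were not. ALDH1A1, CRABP1, CRABP2 and NR2F1 are filled for all 3 origins, RBP4 and NR2F2 for PA-eSLCs alone, and STRA6 for none.

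Between the eSLC origins no gene of the array was called by limma. The share was 0% between NT- and IVP-eSLCs, with a lowest adjusted p of 1, and 0% between PA- and IVP-eSLCs, with a lowest adjusted p of 0.558. At an unadjusted p under 0.05 there were 306 and 568 genes. Among the 7 retinoid genes CRABP2 alone had an unadjusted p under 0.05 (0.0145, PA-eSLCs above IVP-eSLCs), and the methods' t-test called none of the 7. When N2 was left out, the remaining NT line N7 lay above IVP-eSLCs by 4.94 on the log2 scale for ALDH1A1, against the floor. RBP4 was then 3.32 higher in N7 on the log2 scale. A test cannot weigh these differences, since N7 was then a lone array. For ALDH1A1 the IVP- and PA-eSLC arrays were also all at the floor, where they have no spread.

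N7 was thus the eSLC line with the most RBP4 and the only one with measured ALDH1A1. Other genes were also far from the rest in N7. HNF4A, a regulator of liver and endoderm genes, read 9022 in N7 and at most 23.4 on the other arrays by its brightest probe, while its other 3 probes stayed at or below 39.9 everywhere. GATA4, a regulator of primitive endoderm, read 2918 in N7, up to 180 in the other eSLC lines and 19.1 and 18.4 in SCs. APOA1, the main protein of high-density lipoprotein, read 112600 in N7 against at most 6823 elsewhere. Single markers of other cell types stood apart too, while others of the same lists did not. The epiblast marker POU5F1 read 898 in N7 and at most 101 elsewhere. NODAL (39.3) and DPPA3 (15.8) left the floor in N7 alone. By their brightest probes NANOG, LIN28A and SALL4 were each higher in another eSLC line, and SOX2 was highest in SCs. The summed signal of 7 epiblast markers was 2744 in N7 and 1272 to 1913 in the other eSLC lines. The fibroblast marker PDGFRA read 1422 in N7, at most 276 in the other eSLC lines and 5575 and 5155 in SCs. LUM, TWIST1 and FBLN1 were also highest in N7 among the eSLC lines, whereas THY1 and COL1A1 were lowest there. The summed signal of 11 fibroblast markers, 7021 in N7, lay within the range of the other eSLC lines (5563 to 10730). The hypoblast marker SOX17 read 2664 in N7 and 1908 to 2946 in the other lines, while its second probe read 966 in N7 and at most 205 elsewhere. No cell type was assigned to N7. The summed signal of 11 markers of liver and visceral endoderm was 119400 in N7, 4158 to 10110 in the other eSLC lines and 11990 and 10280 in SCs, and APOA1 made up most of it in N7. Without APOA1 the sum of the other 10 was 6850 in N7, 2946 to 3601 in the other eSLC lines and 6305 and 5387 in SCs. Of the 11 markers, 10 were well above background in N7 and also in P1, and 7 to 9 in the other eSLC lines. TTR, the partner of RBP4 in plasma, was at 22.2 in N7 and 2820 and 2507 in SCs. AFP was at 15.9 in N7 and ALB at 23.8. The part of these markers in the N7 values of RBP4 and ALDH1A1 was not tested.

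**Figure D4:**
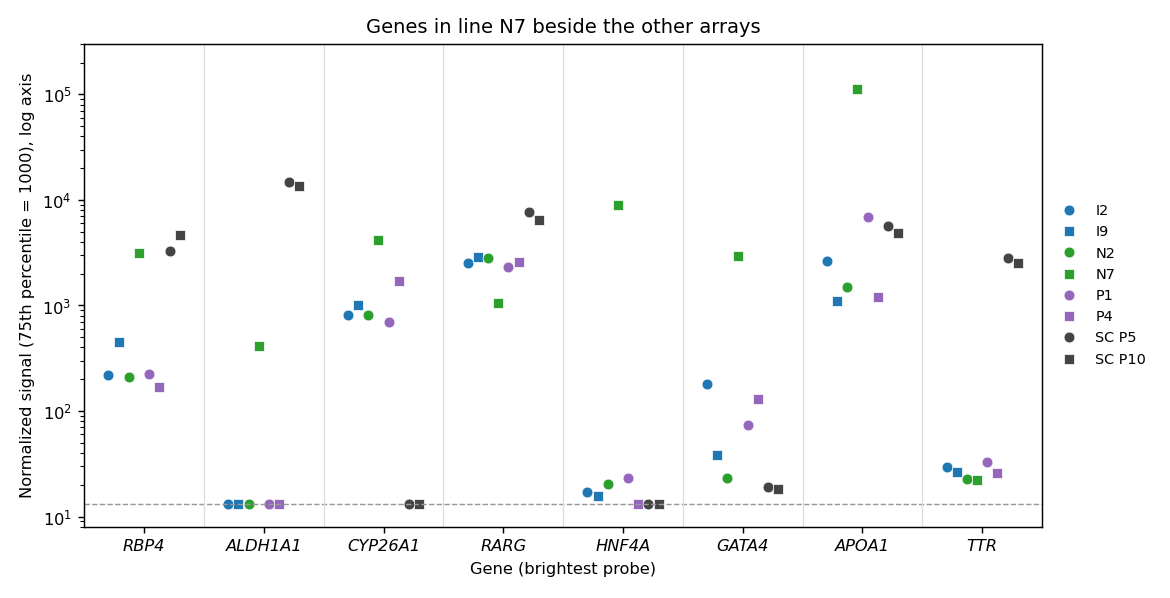
Normalized signal (log axis) on the 8 arrays of 4 retinoid genes (RBP4, ALDH1A1, CYP26A1 and RARG) and 4 genes of endoderm and plasma proteins (HNF4A, GATA4, APOA1 and TTR), with colours as for the plot of the retinoid genes and the floor as a dashed line. N7 (green squares) is the highest array for CYP26A1, HNF4A, GATA4 and APOA1, the highest eSLC line for RBP4 and ALDH1A1, and the lowest array for RARG and TTR.

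Markers of other cell types moved with the same contrast. The summed signal of 11 fibroblast markers was 543100 in SC P5 and 633500 in SC P10 and 5563 to 10730 in the eSLC lines, and 10 of the 11 were called lower in eSLCs. The sum of 6 markers of neural crest and neurons was 36580 and 51380 in SCs and 996 to 3968 in eSLCs, and 5 of the 6 were called lower. The sum of 11 trophectoderm markers was 17830 and 17910 in SCs and 504300 to 1440000 in eSLCs, and 10 were called higher. Of all tested genes, 15.7% were called lower in eSLCs and 19.7% higher. Fewer cells of a type and less RNA per cell cannot be told apart in these samples. The part of these markers in the differences of CRABP1, CRABP2, NR2F1, ALDH1A1 and RBP4 was not tested.

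The patterns of the retinoid genes over the 8 arrays were shared with other genes to very different degrees. As a description, 612 genes followed CRABP1 with a Pearson r over 0.95 on the log2 scale, 498 followed NR2F1, 260 ALDH1A1 and 118 CRABP2. For RBP4 there were 37 and for NR2F2 27, and for STRA6 there was none. The genes most like RBP4 were TSPAN5 (r = 0.987), KBTBD4 (0.985) and VCAN (0.978). Those most like NR2F2 were ASB8 (0.988), FAM3C (0.987) and CAPZA2 (0.985). CRABP1 was most like OLFM1 (0.996), NR2F1 most like FYN (0.997) and ALDH1A1 most like STAMBPL1 (0.998). The 8 arrays share the wide gap between eSLCs and SCs, which any gene with a like gap follows.

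The wider pathway held calls in both directions. A list of 69 further genes of retinoid transport, metabolism, signalling and targets held 53 genes with a probe, of which 46 were tested. Of these, 11 were called higher in eSLCs and 11 lower, with a median log2 difference of 0.10, where 19.7% of all tested genes were called higher and 15.7% lower. Counts this close to the background are no result about the list, and those of its parts are given as a description. Among 18 tested enzymes of retinol and retinal metabolism 6 were higher and 3 lower, among 9 target genes 1 was higher and 3 lower, and among 7 other orphan receptors 1 was higher and 3 lower. None of the 3 tested cofactors was called.

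CYP26A1, the enzyme that breaks down retinoic acid and is itself induced by it, was measured in every eSLC line and in neither SC array. It read 820 in I2, 1014 in I9, 818 in N2, 4176 in N7, 695 in P1 and 1703 in P4, and was at the floor and not well above background on both SC arrays. eSLC signal was at least 92.2-fold higher (limma adjusted p = 0.000651), and the other 2 probes of the gene separated the groups in the same way. CYP26B1, the other breakdown enzyme with a probe, was dim on all arrays, at no more than 32.0.

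Enzymes that oxidize or reduce retinol and retinal were among those with the largest differences. DHRS9, a retinol dehydrogenase, lay between 524 (N7) and 16490 (N2) in eSLCs and at 17.4 and 13.3 in SCs (log2 difference 7.97, SE 1.31, limma adjusted p = 0.00438). RDH12, a retinal reductase, read 94.7 to 1182 in eSLCs and was at the floor in SCs, at least 23.2-fold higher (limma adjusted p = 0.000964). BCO2, which cleaves carotenoids, rose by 3.62 on the log2 scale (limma adjusted p = 0.00711). LPL, which can release retinol from esters in blood, was at least 9.22-fold higher (limma adjusted p = 0.0258), although its other 2 probes hardly left the floor. The calls of DHRS9 and BCO2 were lost without SC P5 or SC P10 (adjusted p 0.06 to 0.086), and that of LPL also without I9 (0.0561).

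Carriers and binding proteins went opposite ways. TTR, which carries RBP4 in plasma, read 2820 and 2507 in SCs and 22.2 to 33.2 in eSLCs, and fell by 6.66 on the log2 scale (SE 0.168, limma adjusted p = 5.47e-06). FABP5, a fatty acid carrier that can also bind retinoic acid, read 992 and 1278 in SCs and 11180 to 42720 in eSLCs (log2 difference 4.25, limma adjusted p = 0.00169).

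Of the receptors with a probe, RARG was the only one called. It read 7598 and 6387 in SCs, 2313 to 2886 in 5 eSLC lines and 1051 in N7 (log2 difference -1.63, limma adjusted p = 0.015), and it is named here because of this value. The RARG call was lost without SC P5 (0.13) or SC P10 (0.0918). RARA had a log2 difference of 0.54 (limma adjusted p = 0.0635) and RXRB of -0.60 (0.0906), and RXRG was at the floor on all arrays.

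Genes that respond to retinoic acid did not move one way. TGM2, a transglutaminase, read 641 and 477 in SCs and 7002 (N7) to 67850 (N2) in eSLCs (log2 difference 5.44, limma adjusted p = 0.00351, and 0.05004 or 0.05563 without either SC array). MEIS1 and MEIS2, homeobox genes of limb and neural tissue, were lower in eSLCs. MEIS1 read 4186 and 4188 in SCs and 147 to 282 in eSLCs (limma adjusted p = 9.28e-05). MEIS2 read 1477 and 1264 in SCs and 61.9 to 184 in eSLCs (limma adjusted p = 0.00185). Outside the target genes, among the other orphan receptors of the list, NR4A2 was also lower in eSLCs. This receptor of dopamine neurons read 1349 and 1014 in SCs and 68.1 to 169 in eSLCs (limma adjusted p = 0.00032). Of its 3 probes, 1 was at the floor on 6 arrays and showed no such gap.

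**Figure D5:**
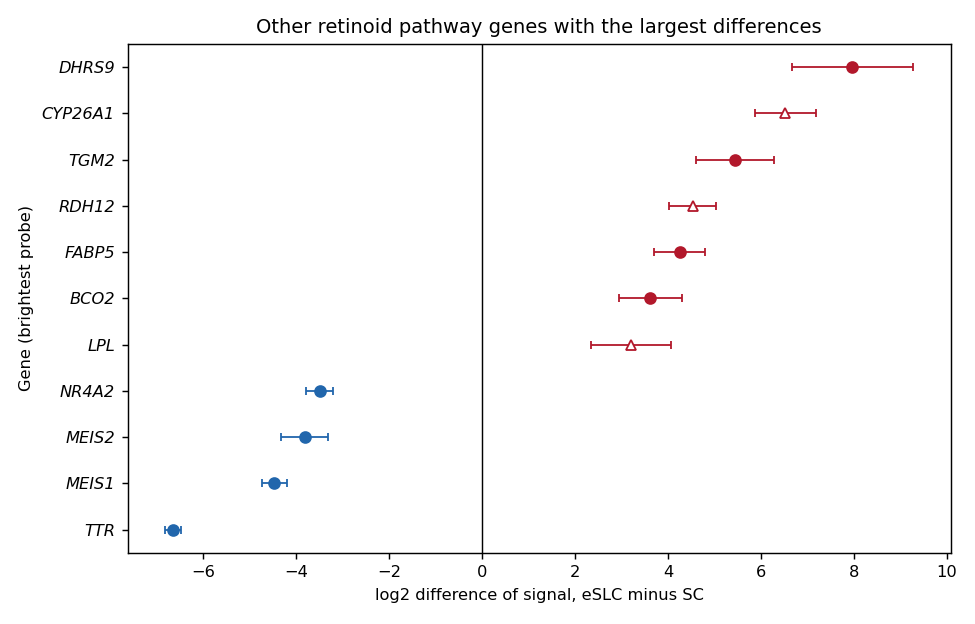
log2 difference of normalized signal between all eSLCs and SCs for the 11 called genes of the wider retinoid list with the largest differences, with bars of 1 standard error. Red points are higher and blue points lower in eSLCs, and open triangles mark CYP26A1, RDH12 and LPL, which were at the floor in SCs so that the true difference may be larger. DHRS9 has the largest rise (7.97) and TTR the largest fall (-6.66).

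All log2 differences of the 7 genes kept their direction under scaling to the median and under quantile normalization. Under the processed signal of the scanner output, STRA6, CRABP2 and NR2F2 turned, with log2 differences of -0.20, 0.86 and 0.60. In 6 of the 8 files that column followed the background-subtracted signal with a Spearman correlation of no more than 0.217 over all probes, against 0.973 in I2 and 0.971 in N2.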

How the data were processed

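RNA of 6 eSLC lines and of SCs at 2 passages was measured on 8 arrays. The authors scanned the 1-colour arrays with Agilent Feature Extraction (version 11.5.1.1 per the file headers), and the deposited scanner output holds linear signal intensities without normalization between arrays. The series table, which the authors normalized in GeneSpring GX, holds linear intensities and served as an alternative. In that deposited series table, among 26625 probes over 100 units, 8025 read the same in SC P5 and SC P10 within 1 unit.

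Control spots and spots flagged as outliers (1 to 11 per array) were left out, and the spots of a probe were averaged, giving 43653 probes. The background-subtracted signal was divided by the array's 75th percentile (1192 to 4092 scanner units, 75.3 to 136 times the dimmest well-measured signal), floored at 13.3 and taken to log2. Of the probes, 26743 matched a gene by RefSeq accession in the NCBI gene table for cattle. A gene was represented by its probe with the highest mean log2 signal. The 10958 genes tested were those flagged well above background on both arrays of some condition. Conditions were compared with limma 3.58.1 in R 4.3.3 (lmFit and eBayes), with a mean for each condition and 1 fit over the 8 arrays. The fit was tested on simulated data. Because the 3 origins are compared with the same SC arrays, those comparisons are not independent. A bound ("at least") sets the measured mean against the floor. The background-subtracted signal was the main one. The processed signal, which did not follow it in 6 of the 8 files, served as an alternative.

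All retinoid members are named with their values. From the wider list the 12 called genes with the largest log2 difference were to be named, of which 1 is not reported here, and RARG was added after its value was seen. The members and lists were chosen with earlier results of these data known. Alternatives covered scaling, filters, the choice of probe, the floor, the signal column, the deposited normalized values, a block for slide, the methods' t-test and leaving out each array. Figures were drawn with matplotlib 3.10.9 in Python 3.11.15. No probe sequences or genome positions were used here.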

Additional observations from a re-analysis of the deposited data

Results flagged for a closer look

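Within the 6 eSLC arrays, 20 genes were screened for a line that stood apart: the 7 members, 12 genes of the wider list and RARG. Of these, 3 had a line whose gap to the nearest other line, as a part of the range, passed Dixon's 95% critical value for a group of 6. In each case the line was N7. RBP4 read 3120 in N7 and 449 in the next line (gap over range 0.664). In the deposited normalized table RBP4 read 735 in N2 beside 759 in N7, so there N7 did not stand apart from N2. ALDH1A1 read 408.5 in N7, with the other 5 lines at the floor (gap over range 1). RARG read 1051 in N7, below 2313 in the next line (0.781). Such a gap arises by chance in about 1 of 20 groups. The ALDH1A1 ratio is fixed by the floor, which a lone line left, and RARG was named after its value was seen, so the number of these genes is not set against chance.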

How the results depend on the processing

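CRABP1 and NR2F1 kept their direction and their call between eSLCs and SCs under all 22 alternatives. ALDH1A1 and CRABP2 kept theirs under 20 of 21. RBP4 kept its direction under all 22 and its call under 11 (adjusted p 0.00103 to 0.297), and NR2F2 was called under 3. The processed signal moved most values, and the cause was not tested. With it 313 genes were called higher and 188 lower (main 2155 and 1719), and 2 members were called lower over all eSLCs, 2 in IVP-, 1 in NT- and 1 in PA-eSLCs (main 5, 4, 4 and 6). The log2 differences that turned against SCs with it were, over all eSLCs, STRA6 -0.2039, CRABP2 0.8637, NR2F2 0.6031, CYP26A1 -1.282, RDH12 -1.42 and RARG 0.9798. In IVP-eSLCs they were CRABP2 1.516 and NR2F2 0.2545, in NT-eSLCs RBP4 0.6123, ALDH1A1 0.2368, CRABP2 0.394 and NR2F2 1.575, and in PA-eSLCs CRABP2 0.6808. The mean of all probes turned STRA6 to -0.0137. A filter on all 8 arrays, which drops genes at background in eSLCs, left 3 members called lower over all eSLCs and 2 in NT-eSLCs. The methods' t-test after Benjamini-Hochberg adjustment called 1 member in NT-eSLCs and 2 in PA-eSLCs. The share of all genes called is not given for this filter and this t-test, so these counts are a description only.

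With the SC arrays counted as 1 sample, 1342 genes were called higher and 1125 lower. Leaving out each array in turn gave 1300 to 2236 genes higher and 1109 to 1780 lower, the fewest without SC P5, and 0 to 1 members called between NT- and IVP-eSLCs. That member was ALDH1A1, called without N2 and also without I9 and N2 together, an alternative chosen after seeing the data. Both fits set the lone NT line N7 against arrays at the floor, which have no spread, so their calls decide nothing. With the deposited normalized values 1 member, RBP4, was called between NT- and IVP-eSLCs, where 117 of all 10958 tested genes were called. This RBP4 call uses the reading of 735 in N2, for which the scanner signal and the deposited table differ. Fitting only the conditions compared gives no separate value for all eSLCs against SCs. Signal over background limits ALDH1A1 and CRABP2 in eSLCs and CYP26A1, RDH12 and LPL in SCs to bounds. No paired analysis was possible because the only replicate number in the labels is 1 for every sample, and the numbers used here follow the order of the samples and pair none. The block for slide is a batch term, set by the NT-eSLC and SC pairs alone, the only conditions on both slides.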
